A study of Mus musculus with 82 samples.

Results

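The 12 hexagons described here came from a single level of the mouse suprachiasmatic nucleus (SCN), the paired nucleus of the hypothalamus in which the master clock of the body lies. They are all the hexagons whose anterior-posterior label is 239, called section 239 below, and they make up 12 of the 82 libraries of the series. They were divided by the dorsal-ventral label alone, and no measured value was used. The 6 high hexagons have a coordinate of 650 or more (695 to 880), and the 6 low hexagons have a coordinate under 650 (301 to 605). All 12 share the same background, since each is untreated SCN tissue of C57BL/6 mice aged 8 weeks, with no transgene, agent or knockout in either group. Per the labels, sections were stained with cresyl violet, hexagons with a largest radius of 40 µm were cut by laser capture microdissection, and libraries were made with Smart-seq2 and Tn5 tagmentation. The hexagons followed a grid and not a marker, so that each holds several cells. The coordinates carry no unit, and no label tells which dorsal-ventral end is ventral. They name no animal, sex or time of collection. Hexagons of this section may therefore share an animal, and every p-value below is taken over hexagons. Such p-values are too small where an animal is shared, and they reflect hexagon-to-hexagon spread alone.

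The SCN is built of GABA-releasing neurons that also release neuropeptides. In the textbook account vasoactive intestinal peptide (Vip) and gastrin-releasing peptide (Grp) mark neurons of the ventral core, which receives the input from the retina. Arginine vasopressin (Avp) marks neurons of the dorsal shell. VIP acts through a receptor coupled to cAMP and helps to keep the cellular clocks in step, and peptides of this kind are cut, amidated and stored in dense-core vesicles before release.

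Each library held 158181 to 730350 counts in total, with a median of 361045.5, and 10184 to 12123 genes were detected. High hexagons averaged 347455 ± 205264 counts and low hexagons 422166 ± 132131 counts (SD, n = 6 each), and an exact two-sided permutation test gave p = 0.461. Genes detected averaged 11217 ± 635 in high and 11311 ± 521 in low hexagons (exact permutation p = 0.781), and mitochondrial transcripts took 1.33% ± 0.157 and 1.42% ± 0.0814 of counts (exact permutation p = 0.229). Adjusted over these 3 measures, the p-values were 0.692, 0.781 and 0.688. A p of 0.00216 is the smallest that 6 against 6 can give. The shallowest library, high hexagon 6, also lies at the highest medial-lateral coordinate (1442) and belongs to library set E, as read from the letter in its description label. Low hexagon 6 is the only other hexagon of that set, and the other 10 are of set D. Most markers of other neurons were at 0 or at low levels, but Hdc and Tac2 were higher in some hexagons. Slc17a7, Slc17a8, Tbr1, Neurod6 and Nrn1, which mark glutamatergic neurons, had no count in any of the 12 hexagons, and Slc17a6 was detected in 3. Of the markers of neighbouring hypothalamic neurons, Crh, Npy, Hcrt, Pmch and Th were at 0 in all 12. Hdc, the histamine-synthesising enzyme, was detected in 11 hexagons, at up to 71.5 CPM in high and 124 CPM in low ones. Pomc was detected in 6 at up to 8.46 CPM, Agrp in 4 at up to 3.49 CPM, and Tac2 in 4 low hexagons at up to 50.6 CPM. The summed level of this list was 12.4 to 71.5 CPM in high hexagons (median 18.3) and 5.31 to 135 CPM in low hexagons (median 35.6), and its part in the results below was not tested. The GABA-synthesising enzyme Gad2 was at 509 to 838 CPM (counts scaled to a common library total) in high and 438 to 739 CPM in low hexagons.

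Of 8201 genes tested, only Irs4 differed between the groups by edgeR's quasi-likelihood test at an adjusted p under 0.05, which is 0.0122% of the genes tested, and this p is too small where hexagons share an animal. Irs4 encodes insulin receptor substrate 4, an adaptor that passes signals on from the insulin and insulin-like growth factor 1 receptors. The gene lies at chrX:141710998-141725263 on the minus strand of GRCm38. An exon of it overlaps the annotated gene Gm15295 on the other strand. No gene of that name is among those counted. The strand setting is not known, and reads of the overlap cannot be assigned to either gene here. The high hexagons 1 to 6 had 279, 173, 25.4, 115, 92.0 and 209 CPM of Irs4, and the low hexagons 1 to 6 had 19.7, 22.3, 5.23, 10.6, 21.9 and 15.7 CPM. All 6 high hexagons stood above all 6 low ones, but the lowest of the high group and the highest of the low group were close, with 5 counts each. Raw counts ran from 5 to 84 in high and from 3 to 11 in low hexagons, so the low values carry a wide counting error. Irs4 averaged 149 ± 90.3 CPM in high and 15.9 ± 6.83 CPM in low hexagons (SD, n = 6 each). The log2 fold change was 3.24 (SE 0.47) with an edgeR adjusted p of 0.00276. The call held without each hexagon in turn, at log2 fold changes of 2.96 to 3.45 and adjusted p-values of 0.000167 to 0.0264. The call was lost when the spread was estimated from all 82 hexagons, where the log2 fold change was 3.22 and the edgeR adjusted p was 1 (unadjusted 0.00139). It was also lost in the fit with sections 191 and 287 described below, at an edgeR adjusted p of 0.9997 (unadjusted 0.00056).

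The promoters of Irs4 and of Vip, the gene with the next largest fold described here, are shown from RefSeq on GRCm38.p6, 250 bases before to 50 bases after the annotated start and read along the gene. Irs4 is at chrX:141725168-141725467 (minus strand) and Vip at chr10:5638968-5639267 (plus strand). Capitals mark CACGTG, the E-box of clock factors, and TGACG, a core piece of the cAMP response element. Both strands were searched, and the 2 motifs do not overlap in either window.
Irs4: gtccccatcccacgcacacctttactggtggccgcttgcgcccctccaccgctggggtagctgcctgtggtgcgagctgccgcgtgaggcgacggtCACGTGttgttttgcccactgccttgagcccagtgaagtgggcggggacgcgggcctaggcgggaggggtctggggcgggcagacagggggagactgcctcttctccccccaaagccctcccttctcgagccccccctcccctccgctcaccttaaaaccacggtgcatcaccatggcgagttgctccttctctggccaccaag
Vip: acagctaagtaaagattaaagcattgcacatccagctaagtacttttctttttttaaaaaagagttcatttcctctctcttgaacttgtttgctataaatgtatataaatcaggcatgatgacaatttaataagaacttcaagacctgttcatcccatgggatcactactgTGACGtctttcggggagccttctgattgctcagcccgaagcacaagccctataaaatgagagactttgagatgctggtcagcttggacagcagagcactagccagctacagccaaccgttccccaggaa
The Irs4 window held 1 E-box and the Vip window held 1 TGACG. Over all 32851 promoters of this length, 7.15% held CACGTG and 20.8% held TGACG on either strand, so these matches are only a description of the letters.

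The rest of the transcriptome showed little difference at this depth. At an unadjusted p under 0.05 edgeR gave 366 genes (4.46% of those tested), 188 of them higher and 178 lower in high hexagons. The median log2 fold change over all tested genes was -0.0065, and 49.2% of genes had a positive value. DESeq2 called Irs4 and also Slc24a3. The group ranges did not overlap for 15 genes (0.183% of those tested), with all high hexagons above in 5 of them and below in 10.

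Besides Irs4, the genes of lowest p on the high side were Slc24a3, Unc5c, Alcam, Dtna and AI593442, none of which passed the edgeR threshold. Slc24a3 encodes a potassium-dependent sodium-calcium exchanger. It was at 63.2 to 174 CPM in high hexagons (median 115) and at 5.98 to 53.6 CPM in low hexagons (median 19.5), so the ranges did not overlap. Its log2 fold change was 2.09 (SE 0.46, edgeR adjusted p = 0.45, DESeq2 adjusted p = 0.0229). Unc5c, a receptor for the guidance cue netrin, was at 227 to 544 CPM (median 367) in high and 106 to 282 CPM (median 165) in low hexagons, with a log2 fold change of 1.07 (SE 0.24, edgeR adjusted p = 0.472). Of the high hexagons, 2 lay within the range of the low group. Alcam, an adhesion protein of the immunoglobulin family, averaged 396 ± 142 CPM in high and 209 ± 48.9 CPM in low hexagons (SD, n = 6 each). Dtna, the dystrobrevin of the dystrophin complex, averaged 223 ± 66.6 CPM in high and 115 ± 25.0 CPM in low hexagons, and AI593442 averaged 285 ± 124 and 119 ± 62.7 CPM. Their edgeR adjusted p was 0.694 in each case.

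On the low side the genes of lowest p were Ptprm, Nsmf, Zfhx4, Fbxo8, Napb and Ppp1r17, and none passed the threshold. Ptprm, a receptor tyrosine phosphatase that also acts in cell adhesion, was at 39.2 to 105 CPM in high and 104 to 230 CPM in low hexagons, with a log2 fold change of -1.25 (SE 0.31, edgeR adjusted p = 0.694). The ranges met only at their edge. Fbxo8, an F-box protein, was at 0 to 26.1 CPM in high and 31.0 to 83.8 CPM in low hexagons without overlap, with a log2 fold change of -1.97 (SE 0.56, edgeR adjusted p = 0.839). Zfhx4, a zinc-finger homeobox transcription factor, averaged 93.0 ± 33.7 CPM in high and 196 ± 71.5 CPM in low hexagons. Ppp1r17, an inhibitor of protein phosphatases, averaged 59.0 ± 37.2 and 149 ± 66.5 CPM. Nsmf, which carries signals from NMDA receptors to the nucleus, averaged 500 ± 153 CPM in high and 860 ± 281 CPM in low hexagons, and Napb, a helper of vesicle fusion, 131 ± 29.9 and 241 ± 92.9 CPM (SD, n = 6 each). Wnt5a, a secreted signal of the Wnt family, was among the genes whose ranges did not overlap and is named after its values were seen. It was at 1.37 to 44.3 CPM in high and 50.5 to 75.8 CPM in low hexagons, with a log2 fold change of -1.84 (SE 0.61, edgeR adjusted p = 0.999). In bulk hexagons of this kind, fewer cells of a type and less RNA per cell cannot be told apart.

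**Figure D1:**
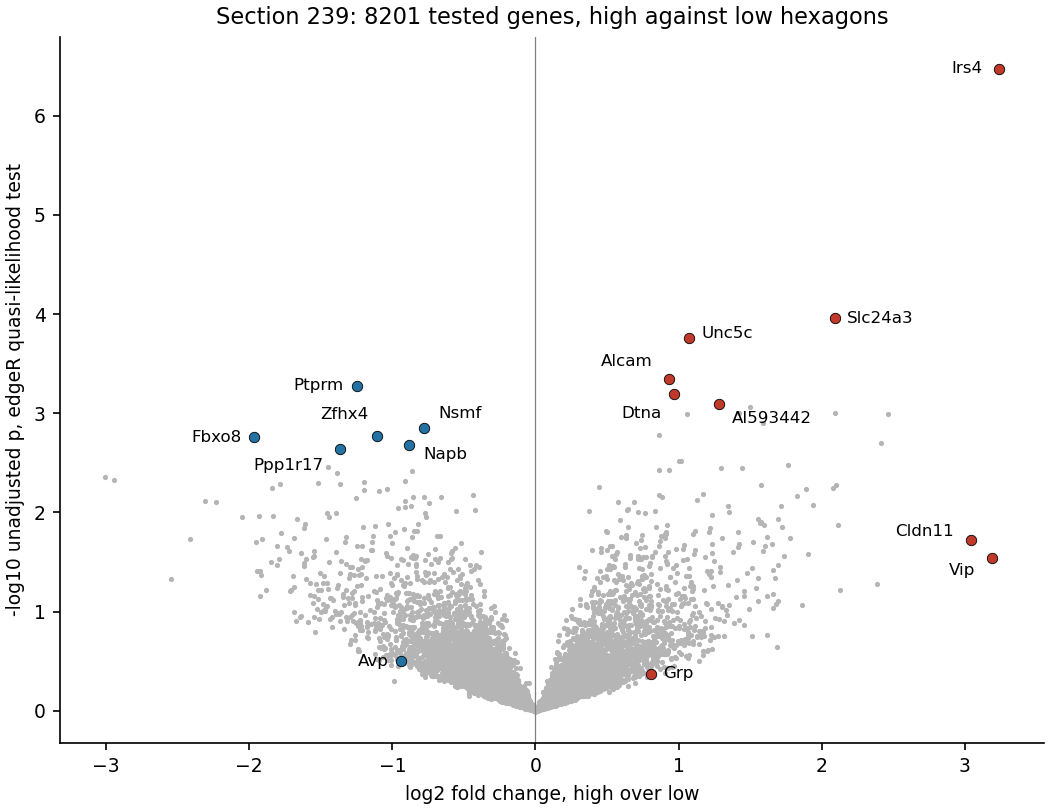
Log2 fold change of high over low hexagons against the unadjusted p of the edgeR test for the 8201 genes tested, with the named genes in colour (red above 0, blue below). Irs4, at a log2 fold change of 3.24, stands above all other genes, while Vip and Cldn11 have folds of a like size at much larger p.

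**Figure D2:**
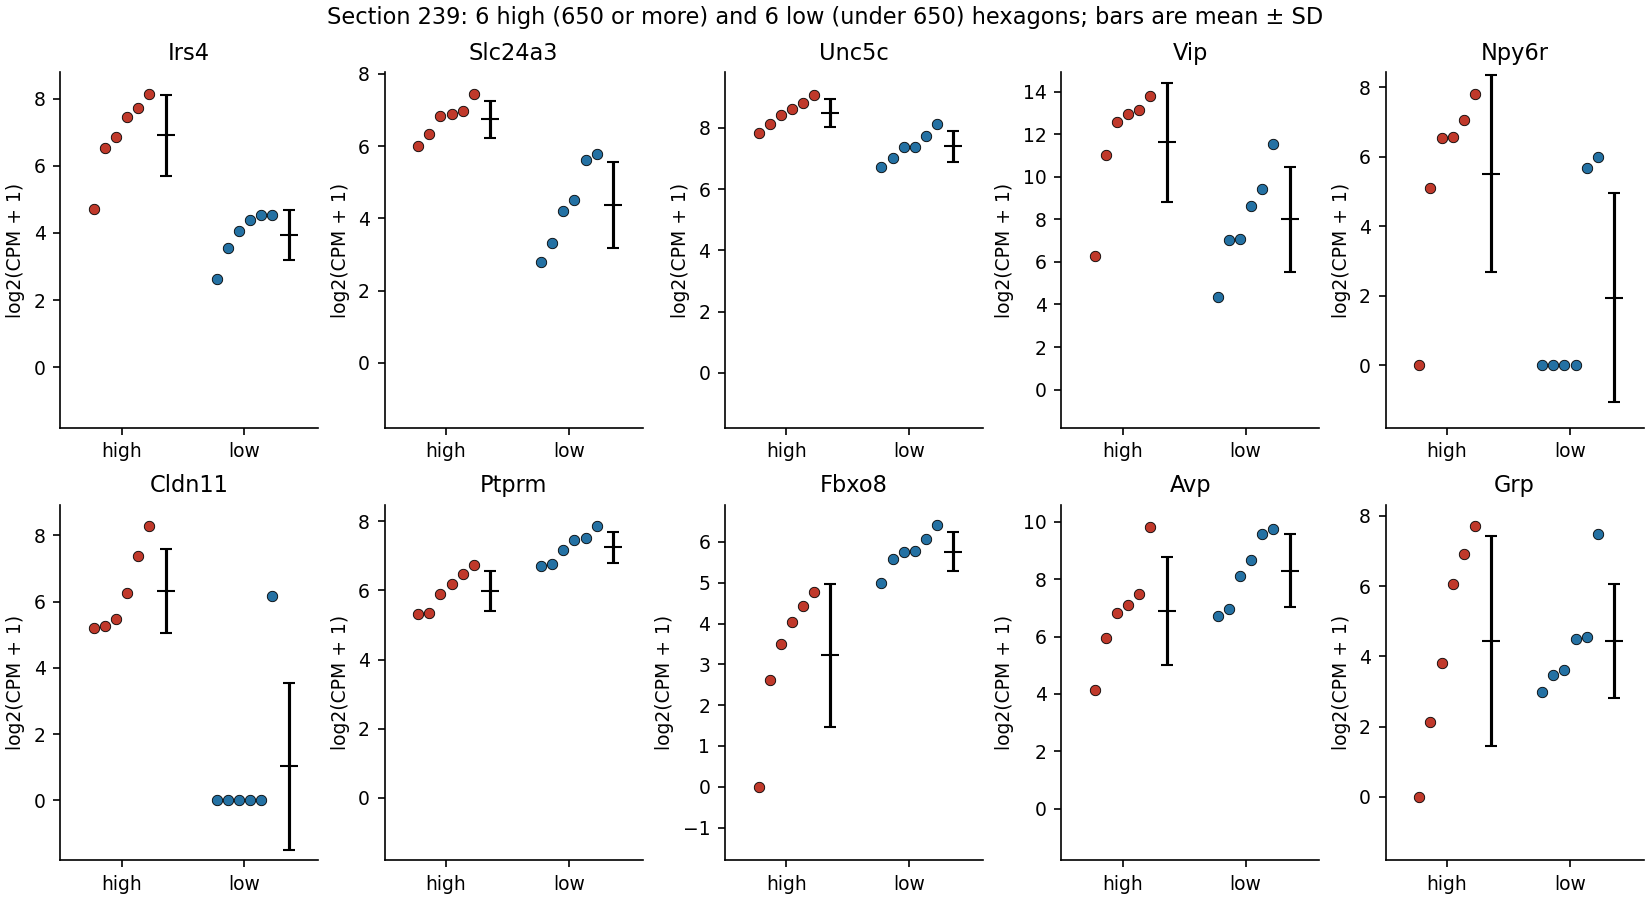
Levels of 10 genes as log2(CPM + 1) in the 6 high (red, left) and 6 low (blue, right) hexagons, with points sorted by level and black bars for mean ± SD. Irs4, Slc24a3 and Fbxo8 do not overlap between groups, whereas the groups of Vip and of Avp overlap, and the high group of Vip holds 1 hexagon far below the others (75.8 CPM).

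Vip had the highest median level and the largest fold change of the peptide transcripts, but did not pass the test over all genes. The high hexagons 1 to 6 had 7873, 14351, 6106, 9156, 2052 and 75.8 CPM of Vip, and the low hexagons 1 to 6 had 3000, 401, 19.2, 696, 136 and 128 CPM. High hexagons 1 to 4 were above all low ones, and high hexagon 5 was above all but low hexagon 1, which has the highest coordinate of the low group (605). High hexagon 6, the most shallow and of the highest medial-lateral coordinate, was below 5 of the 6 low hexagons. The log2 fold change was 3.19 (SE 1.25) with an edgeR adjusted p of 0.999 (unadjusted 0.0289). On the log2(CPM + 1) scale the groups averaged 11.63 ± 2.79 in high and 8.01 ± 2.46 in low hexagons (SD, n = 6 each), a difference of 3.61 with an exact two-sided permutation p of 0.0433. The exact permutation p was 0.0563 to 0.0866 when any hexagon but high hexagon 6 or low hexagon 1 was left out, 0.00866 without high hexagon 6 and 0.026 without low hexagon 1. Without high hexagon 6 the log2 fold change was 3.45 with an edgeR adjusted p of 0.805. The medial-lateral position, low depth and library set of high hexagon 6 cannot be told apart.

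Avp showed the opposite order without a difference beyond the spread. It was at 16.5 to 904 CPM in high hexagons (median 124) and at 104 to 860 CPM in low hexagons (median 344). The highest Avp value of the section was in high hexagon 6, where Vip was lowest among the high hexagons. The difference of mean log2(CPM + 1) was -1.41 with an exact two-sided permutation p of 0.162. Without high hexagon 6 it was -1.999 with an exact permutation p of 0.039. Grp was at 0 to 207 CPM in high hexagons (median 39.6) and 6.97 to 178 CPM in low hexagons (median 16.5), with a difference of 0.0087 and an exact permutation p of 0.996. Its 2 highest values were 207 CPM in high hexagon 4 and 178 CPM in low hexagon 4, which lie on both sides of the limit at medial-lateral coordinates of 1320 and 1263. These p-values too are taken over hexagons that may share an animal and are then too small.

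**Figure D3:**
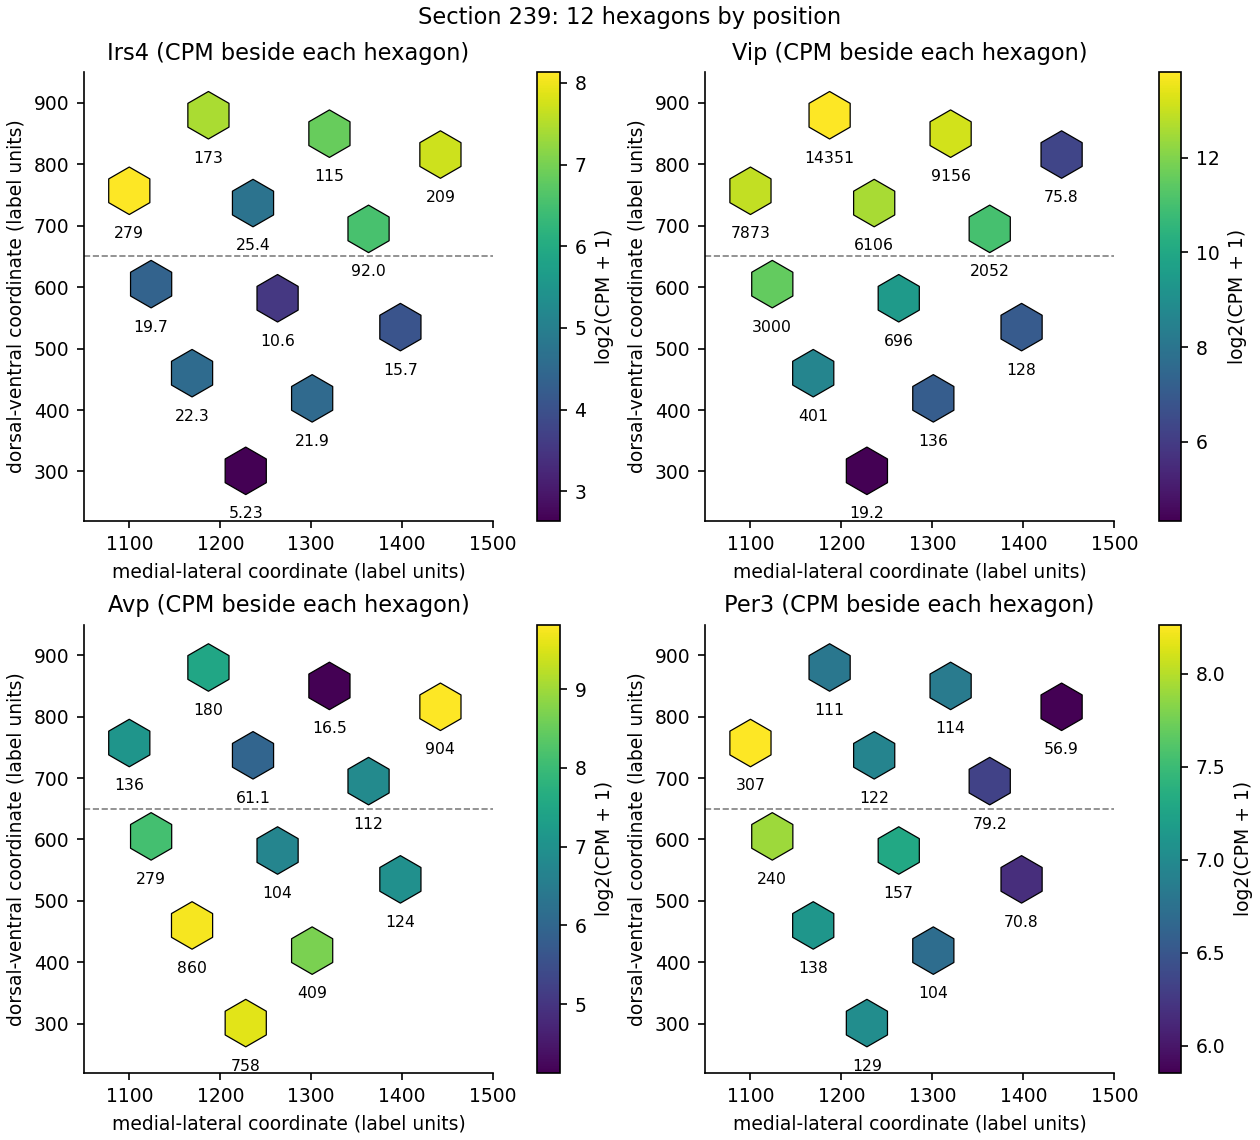
The 12 hexagons of section 239 at their medial-lateral (x) and dorsal-ventral (y) coordinates in label units, coloured by log2(CPM + 1) with the CPM printed under each, and the limit of 650 as a dashed line. Irs4 and Vip are high above the line, Irs4 except in the hexagon at 1236 (25.4 CPM) and Vip except in the hexagon at 1442 (75.8 CPM). Avp has 904 CPM in the hexagon at 1442, and Per3 is highest at the left (307 CPM) and lowest at the right (56.9 CPM).

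Per gene length, the authors' RPKM, which scales reads by transcript length and library total, ranked the peptide transcripts over the 12 hexagons as Vip, Avp, Nms, Prok2, Penk, Cck and Grp, with medians of 409, 268, 192, 137, 63.5 and 46.8 RPKM for the first 6. Irs4 had a median of 3.84 RPKM. The ranges over hexagons of neighbours in that order overlapped, as Vip ran from 5.60 to 4111 RPKM and Avp from 28.5 to 1567 RPKM. Penk, the precursor of the enkephalins, averaged 88.5 ± 63.2 CPM in high and 214 ± 178 CPM in low hexagons, with a log2 fold change of -1.25 (SE 0.60, edgeR adjusted p = 0.999). Cck averaged 47.5 ± 69.2 CPM in high and 70.7 ± 42.7 CPM in low hexagons. Nms, the SCN peptide neuromedin S, and Prok2, an output signal of the SCN, were close, with log2 fold changes of -0.04 (SE 0.31) and -0.13 (SE 0.44), and both signs changed in other settings. Across the 7 tested peptides of a list of 14, 2 were higher and 5 lower, with 1 at an unadjusted p under 0.05. Of all genes tested, 49.2% were higher and 4.46% were under that edgeR p.

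The genes whose level over the 12 hexagons was most like that of Vip, by Spearman's rho of log2(CPM + 1) among 7863 genes, were Pam (0.958), Chga (0.944), Npy6r (0.935), Sod3 (0.935), Igfbp5 (0.93) and Cadps2 (0.923). Pam amidates peptides, Chga is chromogranin A of dense-core vesicles, Cadps2 primes these vesicles, and Npy6r is a receptor of the neuropeptide Y family. Sod3 is the extracellular superoxide dismutase and Igfbp5 binds insulin-like growth factors. Npy6r was at 92.0, 222, 132, 93.4, 33.2 and 0 CPM in high hexagons 1 to 6, and at 62.0 and 50.5 CPM in low hexagons 1 and 4 and 0 in the other 4. Npy6r had no count in high hexagon 6, which was low in Vip and is the shallowest library, where 3 counts equal 19.0 CPM. It was present in the 2 low hexagons that were highest in Vip. Agreement of this kind, here and for Cadps2, follows from the choice of genes most like Vip and is no separate finding. Cadps2 was at 75.8 to 731 CPM in high hexagons (median 544) and 124 to 457 CPM in low hexagons (median 198), again with high hexagon 6 at the bottom. The most opposite genes were Spryd3 and Rpl3 (both -0.916), Afap1 (-0.909), Pcdh11x (-0.902), and Ppil3 and Dcaf8 (both -0.888). Pcdh11x, a protocadherin, was at 10.2 to 133 CPM in high hexagons (median 24.0) and 31.0 to 145 CPM in low hexagons (median 121). These coefficients are a description, because all genes are read from the same 12 libraries, which differ in depth, library set and position. The same hexagons gave a rho of 0.538 for Irs4 with Vip, and 0.762 for Irs4 with Slc24a3.

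No tested member of the 26 gene lists passed the edgeR threshold between the groups, against 0.0122% of all genes, and Irs4 belongs to none of the lists. Of 19 tested genes of prohormone processing and dense-core vesicles, 15 were higher in high hexagons, with a median log2 fold change of 0.20, against 49.2% positive and a median of -0.0065 over all genes. At an unadjusted p under 0.05 there were 5 genes, all higher, namely Pcsk1, Pam, Chga, Cadps2 and Syt4, where 4.46% of all genes tested were under that p, 188 higher and 178 lower. Pcsk1, a convertase that cuts prohormones, averaged 184 ± 73.2 CPM in high and 81.8 ± 57.1 CPM in low hexagons, and Chga 512 ± 188 and 304 ± 131 CPM (SD, n = 6 each). The summed level of this list was 10495 to 13413 CPM in high hexagons and 9199 to 13542 CPM in low hexagons, so the sums overlapped. Of 20 tested genes of cAMP and CREB signalling, 13 were higher, and their summed level was 5027 to 5519 CPM in high and 4263 to 5000 CPM in low hexagons. This sum did not overlap between the groups, though the lowest high and the highest low value were close. No other sum of the 26 lists was free of overlap, the lists were chosen with earlier results of these data known, and the sum was not tested. Ppp1r1a, an inhibitor of protein phosphatase 1 that acts after cAMP, averaged 273 ± 109 CPM in high and 104 ± 70.7 CPM in low hexagons (edgeR adjusted p = 0.694).

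No tested gene of the GABA lists passed the edgeR threshold. The counts in this paragraph stand beside 49.2% of all genes tested that were higher in high hexagons and 4.46% at an unadjusted edgeR p under 0.05. Of 8 genes of GABA synthesis, packing and uptake, 7 were higher in high hexagons (median log2 fold change 0.23), and none had an unadjusted p under 0.05. Of 15 tested GABA receptor subunits, 10 were lower and 5 higher, with a median of -0.45, and 3 lower ones and 1 higher one had an unadjusted p under 0.05. The summed levels of both lists overlapped between the groups. Of 22 tested genes of axon guidance and adhesion, 15 were higher and 7 lower (median 0.36). In this list 5 higher and 2 lower genes had an unadjusted edgeR p under 0.05. On the higher side, Pcdh19 averaged 313 ± 136 CPM in high and 159 ± 58.3 CPM in low hexagons. The 2 lower ones were Pcdh11x and Cdh13, with log2 fold changes of -1.52 (SE 0.50) and -0.60 (SE 0.27). Of 22 tested clock genes, 7 were higher and 15 lower (median -0.11), and Per1, Per2 and Rorb had log2 fold changes of -0.18 (SE 0.30), 0.26 (SE 0.35) and -0.41 (SE 0.19). Rorb, a nuclear receptor of the clock's second loop, was at 802 to 1428 CPM in high and 903 to 2103 CPM in low hexagons. Of 7 tested immediate early genes, 6 were lower (median -0.28).

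Most tested markers of oligodendrocytes and astrocytes were on the high side, where 49.2% of all genes tested lay, though none passed the edgeR threshold. Of 7 tested oligodendrocyte markers, 6 were higher in high hexagons (median log2 fold change 0.86), and the summed level of the 12 listed was 1407 to 5754 CPM in high hexagons (median 1826) and 452 to 3707 CPM in low hexagons (median 677). Cldn11, a claudin of myelin, was at 35.7 to 307 CPM in the 6 high hexagons, at 70.8 CPM in low hexagon 6 and at 0 in the other 5 low hexagons. Its log2 fold change was 3.04 (SE 1.14, edgeR adjusted p = 0.999), and it passed the threshold once low hexagon 6 was left out. Astrocyte markers were higher for 13 of 14 (median 0.20), with sums of 3384 to 6316 CPM in high and 1594 to 5937 CPM in low hexagons. Oligodendrocyte precursor sums were 25.6 to 416 CPM in high hexagons (median 64.3) and 7.97 to 570 CPM in low hexagons (median 106), with the higher median in the low group. Microglial sums were 57.9 to 480 CPM in high and 15.9 to 363 CPM in low hexagons, endothelial and mural sums reached 953 CPM in high and 410 CPM in low hexagons, and erythrocyte sums 8.24 to 743 and 7.97 to 271 CPM. Markers of meninges and ependyma stayed at or under 45.2 CPM in sum in every hexagon. The part of these markers in the results for Irs4, Vip and the other genes was not tested.

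Replacing the groups by the dorsal-ventral coordinate itself, with the medial-lateral coordinate in the fit, gave 17 genes at an edgeR adjusted p under 0.05 (0.207% of those tested), 13 with a positive and 4 with a negative slope. The slope is a log2 change per 100 label units. The slope of Irs4 was 0.91 (SE 0.15, adjusted p = 0.00536) and that of Slc24a3 was 0.68 (SE 0.13, adjusted p = 0.0243). The positive side also held Ppp1r1a, AI593442, Tenm3, Ptp4a1, Pcsk1, Npy6r, Cblb, Chga, Adcy3, Ptprk and Cldn11. Ppp1r1a rose by 0.53 per 100 units (SE 0.081, adjusted p = 0.00536), Chga by 0.31 (SE 0.063, adjusted p = 0.0272) and Pcsk1 by 0.52 (SE 0.099, adjusted p = 0.0218). Adcy3, an adenylyl cyclase, was at 152 to 281 CPM in high and 20.9 to 254 CPM in low hexagons, with a slope of 0.44 (SE 0.088, adjusted p = 0.0278). Tenm3, an adhesion protein of the teneurin family, was at 245 to 730 CPM in high and 140 to 481 CPM in low hexagons, with a slope of 0.39 (SE 0.065, adjusted p = 0.00536). Npy6r rose by 1.18 per 100 units (SE 0.23, adjusted p = 0.0243). Exons of Adcy3, Tenm3, Unc5c, Dtna and Penk overlap annotated genes on the other strand, so their reads carry the same uncertainty as those of Irs4.

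The 4 negative slopes were those of Gpr101, Syt1, Ptprm and Zic4. Gpr101, an orphan receptor coupled to G proteins, was at 0 to 74.1 CPM in high hexagons (median 10.9) and 0 to 228 CPM in low hexagons (median 68.4), and its slope was -0.95 (SE 0.16, edgeR adjusted p = 0.00536). The highest Gpr101 value was in low hexagon 3, at the lowest dorsal-ventral coordinate. Syt1, the calcium sensor of fast vesicle release, was at 42.5 to 391.8 CPM in high and 102 to 523 CPM in low hexagons, with a slope of -0.37 (SE 0.074, adjusted p = 0.0271). The slope of Zic4, a zinc-finger transcription factor, was -0.43 (SE 0.092, adjusted p = 0.0427). An exon of Zic4 overlaps annotated genes on the other strand. Vip had a slope of 1.43 (SE 0.24) with an edgeR adjusted p of 0.0656. Among the lists, prohormone processing and dense-core vesicles had 16 positive and 3 negative slopes of 19, with Pcsk1 and Chga called. cAMP and CREB signalling had 14 positive of 20, with Ppp1r1a and Adcy3 called. Other lists held calls too. Peptide and hormone receptors had Npy6r called up and Gpr101 down, and vesicle release machinery had Syt1 called down. Oligodendrocyte markers had Cldn11 called up. GABA receptors had 4 positive and 11 negative slopes, with none called. Over all genes 4031 slopes were positive and 4170 negative, and 0.207% of genes were called. In fits chosen after seeing the data, the number of called genes depended on single hexagons and ran from 5 to 40 when each was left out in turn. Ppp1r1a and Irs4 were called in all 12 of these fits. The number was 40 without high hexagon 6, all 17 included, and 5 without high hexagon 4 or low hexagon 2. Vip and Avp, not among the 17, were called without high hexagon 6. They were also called without library set E, a fit that leaves out the same hexagon together with low hexagon 6. Both fits were chosen after seeing the data. These p-values too are taken over hexagons that may share an animal.

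**Figure D4:**
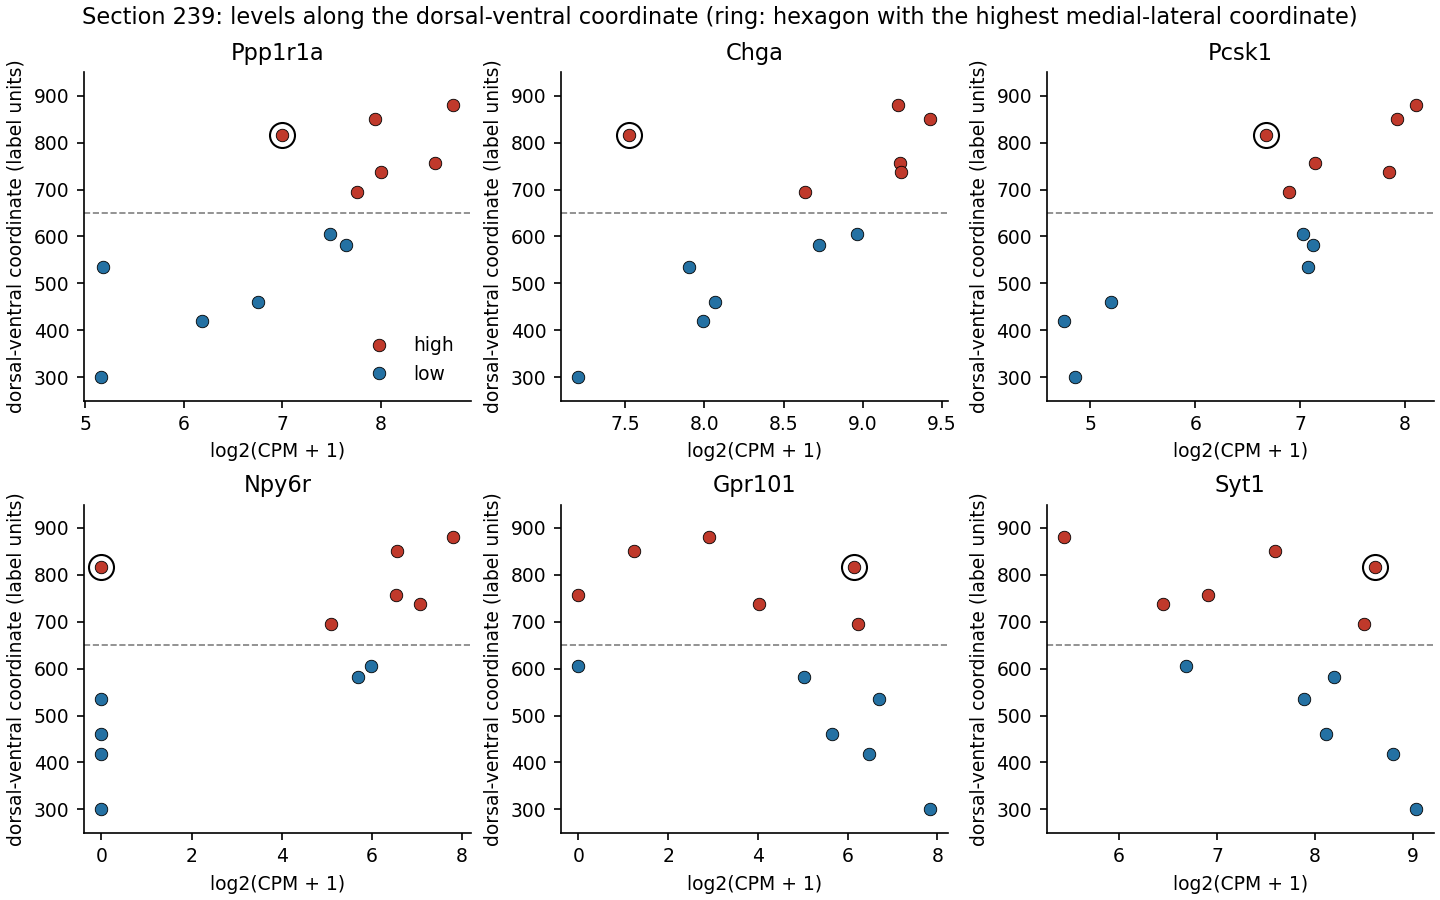
Levels of 6 genes as log2(CPM + 1) (x) against the dorsal-ventral coordinate (y) for the 6 high (red) and 6 low (blue) hexagons, with the limit of 650 as a dashed line and a ring round high hexagon 6. Ppp1r1a, Chga, Pcsk1 and Npy6r are higher towards the top except in the ringed hexagon, and Gpr101 and Syt1 are lower there, the ringed hexagon again apart.

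Across the other axis, with the group in the fit, no gene of 8201 passed the edgeR threshold for a medial-lateral slope (0%), and 543 had an unadjusted p under 0.05. DESeq2 called 4, namely Auts2, Mdh1, Per3 and Spock1. Genes of the circadian clock were among those of lowest p. Per3, a period protein of the clock's feedback loop, had 307 CPM in high hexagon 1 and 56.9 CPM in high hexagon 6, at the 2 ends of the axis, and 240 CPM in low hexagon 1 and 70.8 CPM in low hexagon 6. Its log2 slope per 100 units was -0.60 (SE 0.12, edgeR adjusted p = 0.226), and Spearman's rho with the coordinate was -0.867 over 12 hexagons. Per1 was at 310 and 375 CPM in high and low hexagon 1 and at 114 and 102 CPM in high and low hexagon 6, and its slope was -0.48 (SE 0.12, edgeR adjusted p = 0.494). Both groups thus had their highest Per3 and Per1 values at the low end of this axis, and the log2 fold changes between the groups were -0.07 (SE 0.34) and -0.18 (SE 0.30). Of 22 tested clock genes, 15 had a negative slope (median -0.13), and 6 of these had an unadjusted p under 0.05, namely Per1, Per3, Nr1d1, Dbp, Hlf and Tef. Of all genes tested, 49.8% had a positive slope and 6.62% had an unadjusted edgeR p under 0.05. Cry2 had a positive slope of 0.36 (SE 0.17).

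Outside the clock, Auts2, a regulator of neuronal development, had the lowest p of all, and its slope was -0.72 (SE 0.13, edgeR adjusted p = 0.0995). Auts2 passed the threshold without high hexagon 4, at an edgeR adjusted p of 0.0291. It was at 296 and 299 CPM in high and low hexagon 1, against 56.9 and 45.2 CPM in high and low hexagon 6. Slc6a6, the taurine transporter, had a slope of -0.63 (SE 0.17) and Malat1, a nuclear long non-coding RNA, one of -0.25 (SE 0.064). On the positive side were Spock1, a secreted proteoglycan, with 0.95 (SE 0.21), Mdh1, the cytosolic malate dehydrogenase, with 0.30 (SE 0.069), and Cdh13, a cadherin, with 0.43 (SE 0.10). Their edgeR adjusted p-values were between 0.31 and 0.55. The 2 hexagons of library set E have the highest medial-lateral coordinates, 1442 and 1398, and without them the slope of Vip, -1.40 (SE 0.53) over all 12, was -1.10. Library set and the ends of this axis cannot be told apart with 2 hexagons.

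Sections 191 and 287, the next ones on either side, were used to see whether the difference between high and low hexagons was particular to section 239. They hold 14 hexagons each, 6 high and 8 low in section 191, and 8 high and 6 low in section 287. Shallow libraries are among them, with 11905 and 118442 counts in low hexagons 3 and 8 of section 191. Low hexagon 5 of section 287 held 120175 counts. The highest Irs4 value of the low group of section 191 (116 CPM) is that of its shallow low hexagon 8. The difference of the log2 fold changes was called for none of 8875 genes tested by edgeR (0%) and for none by DESeq2, with 210 at an unadjusted p under 0.05 by edgeR. On a common scaling over 40 hexagons, Irs4 had log2 fold changes of 3.22 (SE 0.86) in section 239, 2.10 (SE 0.80) in section 191 and 0.83 (SE 0.77) in section 287. In this fit Irs4 was not called in section 239 either (edgeR adjusted p = 0.9997). In section 191 it was at 0 to 225 CPM in high and 0 to 116 CPM in low hexagons, and in section 287 at 7.77 to 126 CPM in high and 9.43 to 62.1 CPM in low hexagons, so the groups overlapped in both. The difference of section 239 to their mean was 1.76 (SE 1.00) with an edgeR adjusted p of 0.9999 (unadjusted 0.0876). Vip had log2 fold changes of 3.17 (SE 1.29), 4.66 (SE 1.26) and 3.26 (SE 1.25) in sections 239, 191 and 287, and the difference was -0.79 (SE 1.44). Slc24a3 had 2.08 (SE 0.50), 0.27 (SE 0.43) and 0.72 (SE 0.45), with a difference of 1.58 (SE 0.58, unadjusted p = 0.00853). Fbxo8 had -1.97 (SE 0.60), 0.73 (SE 0.52) and 0.56 (SE 0.53), with a difference of -2.61 (SE 0.71, unadjusted p = 0.000478), the lowest p of all genes. The edgeR adjusted p of all of these differences was 0.9999, so none is shown to be particular to section 239, and their p-values are too small where hexagons share an animal.

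**Figure D5:**
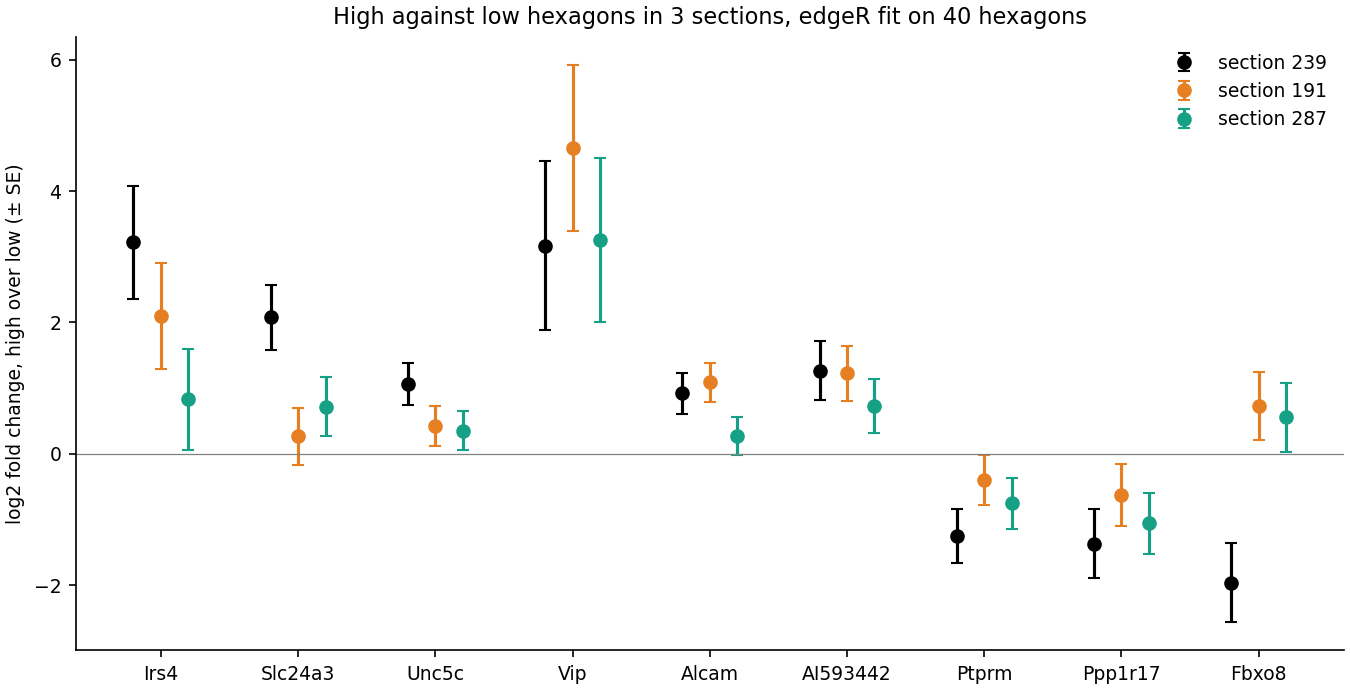
Log2 fold change of high over low hexagons (± SE) for 9 genes in section 239 (black), 191 (orange) and 287 (green) from one edgeR fit on 40 hexagons. Irs4 is at 3.22, 2.10 and 0.83, Vip is positive in all 3, and Fbxo8 is at -1.97 in section 239 and above 0 in the other sections.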

How the data were processed

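The deposited gene table holds raw read counts per gene for 82 laser-captured hexagons, and a second deposited table holds the authors' RPKM with gene lengths. The RPKM equal the counts divided by length and library total to a relative deviation of 5.2e-15, so they are no independent measurement. Per the submitters' processing notes, bcl2fastq 2, STAR and GRCm38 were used; for the counting program, strand setting and annotation, the names were not given in the sources used here. Symbols came from the RPKM table for 27055 genes and from RefSeq's gene table for 455, and 5 had none. Genes absent from the RPKM table held 0.0316% of counts.

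Counts of section 239 were scaled by TMM and tested with edgeR 4.0.16 (limma 3.58.1, R 4.3.3) by its quasi-likelihood test with Benjamini-Hochberg adjustment, after leaving out genes that did not reach 10 counts in at least 4 of the 12 libraries. The fit with sections 191 and 287 used 10 counts in 10 of 40 libraries. CPM values are on the TMM scale, set separately for the 12 and the 40 libraries. Single values were compared by exact permutation tests (scipy 1.17.1, Python 3.11.15), and figures were drawn with matplotlib 3.10.9. DESeq2 1.42.0 was an alternative. The edgeR steps were tried on simulated counts of independent libraries with the same spread for all genes. That trial cannot speak to shared animals, to nearby positions or to a spread that differs between genes. The rule for named genes took 16 fixed SCN genes, the 6 of lowest p in each direction with a mean of 20 CPM or more for both axes, and the 6 most like and 6 most opposite to Vip. Genes called for the dorsal-ventral slope and list members at an unadjusted p under 0.05 were named after their values were seen. Members and lists were chosen with earlier results of these data known, and TGACG after its promoter was read. A count of 3 equals 4.11 to 19.0 CPM, depending on the library, and covers counting error only. Of 61 genes placed on GRCm38, 19 have an exon that overlaps another gene, 15 of them on the other strand.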

Additional observations from a re-analysis of the deposited data

Results flagged for a closer look

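In these groups of 6 hexagons, the highest or lowest value on the log2(CPM + 1) scale lay far from the nearest of the other 5 relative to the group's whole range, past Dixon's 95% limit. This held for 17 values among 128 groups examined, where chance gives about 1 in 20 groups if these are independent and unselected. The groups here are neither, since the genes share the same 12 hexagons, and Pam, Npy6r, Sod3 and Cadps2 were named for their likeness to Vip, so the number is not set against that rate. High hexagon 6 held 7 low ones, with 75.8 CPM of Vip, 75.8 CPM of Cadps2, 354 CPM of Pam, 442 CPM of Syt10, and 0 CPM of Penk, Npy6r and Sod3. It is the shallowest library of the section. Low hexagon 1 had 31.0 CPM of Pcdh11x, 11.3 CPM of Ppil3 and 0 CPM of Gpr101. Low hexagon 4 had 178 CPM of Grp, 7.97 CPM of Cck and 69.1 CPM of Zfhx4. Low hexagon 6 had 70.8 CPM of Cldn11, low hexagon 3 had 455 CPM of Syt10, high hexagon 3 had 219 CPM of Per2 and high hexagon 1 had 153 CPM of Six3.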

How the results depend on the processing

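The call of Irs4 was lost when all 82 hexagons shared the spread, which left 0 genes. It was also lost in the fit on 40 hexagons, which called 0 genes between the groups of section 239. Genes called between the groups were 2 with DESeq2, 26 with no filter (21 higher, 5 lower), 4 without library set E and 1 to 2 when each hexagon was left out, and the dorsal-ventral slope called 17. That slope called 55 genes with DESeq2, 41 without set E and 5 to 40 when each hexagon was left out, all chosen after seeing the data. The medial-lateral slope called 4 with DESeq2, 3 with no filter and 0 to 1 when each hexagon was left out. Leaving out each hexagon gave differences of mean log2(CPM + 1) of 2.88 to 4.68 for Vip, -1.999 to -0.86 for Avp and -0.64 to 0.90 for Grp (-0.0047 by library size alone), of genes detected of -256 to 113, of total counts of -151291 to -36857 and of mitochondrial percent of -0.131 to -0.0544. Small log2 fold changes changed sign. Lhx1 was at -0.011 with DESeq2, -0.023 without set E, -0.0090 with all 82 hexagons and -0.20 to 0.56 with each left out. Nms was at 0.088 without the shallow library, 0.11 without set E, 0.12 as a slope and -0.33 to 0.15 with each left out. Prok2 was at 0.032 without the shallow library, 0.055 with the medial-lateral coordinate in the fit, 0.086 as a slope and -0.44 to 0.21. Gad2 was at -0.0024 without the shallow library, -0.018 without set E, -0.0014 with that coordinate, -0.015 as a slope and -0.10 to 0.089. Six3 was at 0.052 with the coordinate, 0.046 as a slope and -0.28 to 0.16, Per1 at 0.029 as a slope and -0.39 to 0.084, and Syt10 at -0.0032 to 0.29. The medial-lateral slope of Avp was -0.61 without the shallow library, -0.43 without set E, -0.36 with set as a factor and -0.61 to 0.53, and the difference of Vip to 6 other sections was 0.31, or -1.17 to 0.66 with each left out. The causes were not tested. Depth limits low genes, since 5 counts set the nearest Irs4 values. No paired analysis was possible because the labels give the groups no shared replicate numbers. The grid column in the hexagon label spans both groups for columns A, B and C. Column D holds high hexagon 6 alone, so a fit with the column as a block draws the group difference from the other hexagons only. With that column as a block, chosen after seeing the data, Irs4 was again the 1 gene called, and the log2 fold change was -0.24 for Grp, 0.16 for Prok2, 0.23 for Per1, 0.26 for Six3 and -0.046 for Gad2, all of the other sign.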

Other observations

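Sst, the gene of the peptide somatostatin, is named after its values were seen. It had 266 counts (464 CPM) in low hexagon 3, at the lowest dorsal-ventral coordinate of the section, 1 count in low hexagon 1 and 0 in the other 10 hexagons. The genes whose ranges did not overlap and that are not described above were Amy1, Tspan17 and Rabggta, higher in all high hexagons, and Fam168a, Cep170b, Kdm2a, Fuca1, Lsm12, Zrsr2, Rpap3 and Irak2, lower in all high hexagons. Irs4 was the single gene of these 15 that passed edgeR's threshold.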
